A study of Mus musculus with 17 samples.

Results

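Dppa2, Dppa3, Dppa4, Dppa5a and Fbxo15 are 5 genes known for their activity in the early mouse embryo, the germ line and embryonic stem cells. They were taken by symbol from a count table of 25899 symbols, in which all 5 were present. RNA made during a 15 minute pulse of 5 mM ethynyl uridine was captured and sequenced in 17 libraries, and is called new RNA here. The cells were mouse embryonic stem cells, E14tg2a, of 129SV background. In every group the cells lacked their own ERK1 and ERK2 genes and lived on a cDNA for FLAG-ERK2 Q103A, an ERK2 with an altered ATP pocket that PP1 can block. They also carried cRAF-ErT2, a RAF kinase that 4-hydroxytamoxifen (4OHT) turns on, so that all groups, controls included, are engineered clones of 1 line.

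The clones had been grown in serum with LIF and 2 µM Chir99021, an inhibitor of GSK3, and then spent 24 h in medium where 250 nM PD173074, which blocks FGF receptors, took the place of Chir99021. The 4OHT group then received 250 nM 4OHT for 2 h, against the DMSO group, which received none. The MEKi with 4OHT group received the same with a MEK inhibitor at 1 µM, against MEKi alone. The PP1 with 4OHT group received it with 2 µM PP1, against PP1 alone. The DMSO group held 2 libraries (clones b and c), and the other 5 groups held 3 each, from clones a, b and c. Each replicate is thus a clone, and the same clones recur across groups. The main fit held no clone term, so p-values rest on the spread between libraries within groups, pooled over all groups.

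Dppa2 and Dppa4 encode small SAP-domain proteins that bind each other on chromatin and are known, in mouse embryonic stem cells, to keep a set of developmental promoters free of DNA methylation and to act upstream of Dux and Zscan4 genes. Dppa3 (Stella) is a maternal protein that holds back UHRF1, the factor that brings the maintenance methyltransferase to DNA. Dppa5a (Esg1) is a KH-domain RNA-binding protein. Fbxo15 is an F-box protein, of the class that gives the SCF ubiquitin ligase its substrates, and its gene is a classical OCT4 and SOX2 target used as a reporter of reprogramming. The genes share a place in lists of pluripotency markers and not a protein family, since the Dppa symbols stand for developmental pluripotency-associated genes that were grouped by where they are expressed.

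In mm10, with annotation from GENCODE mouse release 21, Dppa4 (ENSMUSG00000058550.15) lies at chr16:48283733-48294237 and Dppa2 (ENSMUSG00000072419.5) at chr16:48303908-48319723, both on the plus strand and 9671 bp apart. Dppa3 (ENSMUSG00000046323.8) lies at chr6:122626410-122630272 on the plus strand, and Dppa5a (ENSMUSG00000060461.5) at chr9:78367052-78368177 on the minus strand. Dppa5a is the shortest, with a span of 1126 bp and 619 bp of exon. It has 2 pseudogenes on chromosome 9, Dppa5b and Dppa5c, which are not among the table's symbols. Their sequences are shown because reads from such copies could be counted for Dppa5a or lost. The first 60 bases from the start codon follow, in the transcripts' own direction, with the 2 positions at which the pseudogenes differ from Dppa5a in capitals.
Dppa5a: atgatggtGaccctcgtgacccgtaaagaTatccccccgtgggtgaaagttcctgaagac
Dppa5b and Dppa5c: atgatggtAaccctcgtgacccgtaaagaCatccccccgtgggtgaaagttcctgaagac
Over 348 aligned bases the pseudogenes were 88.8% identical to Dppa5a, with 39 differing bases and 2 gaps, and they did not differ from each other.

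Library totals ran between 5239690 and 11093390 counts. The 9 embryonic stem cell markers summed to between 2960 and 3930 CPM (counts relative to the library size after TMM scaling) in every library, while the 7 fibroblast markers summed to at most 8.45 CPM, with S100a4 at 0 throughout. Primitive endoderm markers reached 19.8 CPM and trophoblast markers 52.9 CPM at most. Among 9 known ERK targets, all 9 rose with 4OHT and all 9 rose with 4OHT under PP1, while 7 of 9 fell with 4OHT under MEKi (adjusted p under 0.05, edgeR). Of all genes tested, 25.7% rose with 4OHT and 18.4% with 4OHT under PP1, and 7.03% fell with 4OHT under MEKi. With library totals as the only scaling, 7 of the 9 targets rose with 4OHT, 9 rose under PP1 and 7 fell under MEKi. Spry4, a feedback inhibitor of the pathway, averaged 2320 CPM with 4OHT against 114 CPM with DMSO, 1.6 CPM in MEKi with 4OHT against 17.5 CPM in MEKi, and 774 CPM in PP1 with 4OHT against 46.5 CPM in PP1. Mapk3, the ERK1 gene, had 7.59 to 17.9 CPM over the libraries, and the labels do not say which of its bases were deleted. A group of 14 loci whose counts moved together took between 9.38% and 42% of a library's counts, the highest share in PP1 clone a. None of the 5 genes is among these loci.

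All 5 genes passed the filter on low counts. Dppa2, Dppa4, Dppa5a and Fbxo15 had at least 166 counts in each library, while Dppa3 had 2 to 17. Levels of different genes were compared per kilobase. In DMSO, Dppa5a had 183 ± 33.7 CPM per kilobase of exon (SD, n = 2), Fbxo15 117 ± 2.63, Dppa4 37.8 ± 0.431, Dppa2 26.7 ± 2.15 and Dppa3 0.772 ± 0.212, and the libraries of neighbours in this order did not overlap. With 4OHT, Dppa5a stood at 212 ± 93.2 CPM per kilobase of exon (SD, n = 3), Dppa4 at 57.6 ± 3.35, Dppa2 at 41 ± 3.15, Fbxo15 at 33.5 ± 4.65 and Dppa3 at 0.649 ± 0.609. Here Dppa2 (37.3 to 43) and Fbxo15 (28.6 to 37.9) overlapped. The order was the same per kilobase of whole gene span, although the distance between Dppa5a and the rest grew, with Dppa5a at 100 and Fbxo15 at 8.45 CPM per kilobase of span in DMSO. With 4OHT, Dppa2 had 6.34 ± 0.488 and Fbxo15 2.41 ± 0.334 CPM per kilobase of span (SD, n = 3). As described below for Timm21, counts behave as if taken over whole gene spans, so distances per kilobase of exon should be read with care.

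**Figure D1:**
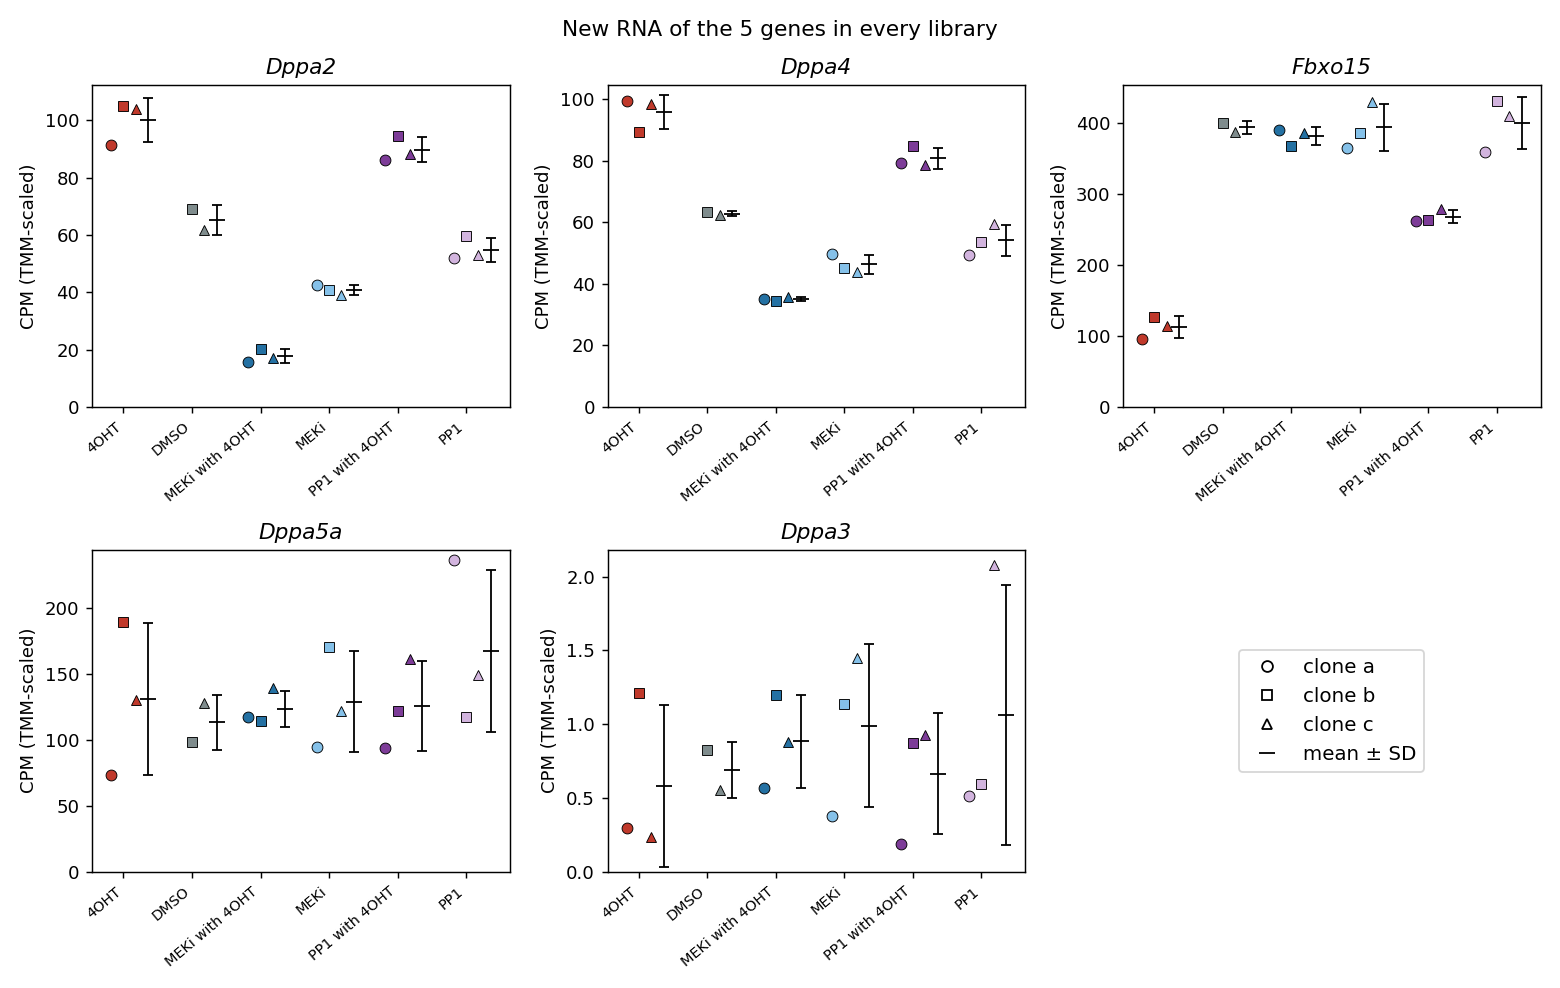
Level of new RNA of each gene (CPM after TMM scaling, y axes from 0) in the 17 libraries, with 1 panel per gene and 1 position per group. Points are libraries, shaped by clone, and bars are mean ± SD. Dppa2 and Dppa4 are lowest in the 3 MEKi with 4OHT libraries (15.8 to 20.4 and 34.3 to 35.7 CPM), Fbxo15 is lowest in the 3 4OHT libraries (96.1 to 127 CPM), and the groups overlap for Dppa5a and Dppa3.

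Switching on the RAF kinase for 2 h, in cells with no MEK or ERK inhibitor, raised new RNA of both Dppa2 and Dppa4 and lowered that of Fbxo15. At an adjusted p under 0.05 (edgeR's quasi-likelihood test, Benjamini-Hochberg over 14907 genes, used throughout), 2 of the 5 genes were called higher and 1 lower. Of all genes tested, 52% were called in this comparison, 25.7% higher and 26.3% lower, so 3 of 5 called is close to the share among genes at large. In bulk RNA such as this, a change in how many cells express a gene and a change in RNA per cell cannot be told apart.

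Dppa2 had 91.4, 105 and 104 CPM with 4OHT (clones a, b and c), against 69 and 61.6 CPM with DMSO (clones b and c). Dppa4 had 99.4, 89.4 and 98.6 CPM with 4OHT, against 63.4 and 62.4 CPM with DMSO. For both genes every 4OHT library lay above every DMSO library. How often genes at large separate in this way was not counted, here or for the later statements on overlap. The log2 fold change was 0.61 ± 0.10 for Dppa2 (SE, adjusted p = 1.9e-05) and 0.61 ± 0.09 for Dppa4 (adjusted p = 4.4e-06), each 1.53-fold, and the direction held in the 2 clones present in both groups.

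Fbxo15 (ENSMUSG00000034391.12, chr18:84934782-84981473, plus strand, mm10) had 96.1, 127 and 114 CPM with 4OHT, against 401 and 388 CPM with DMSO. The groups were far apart and each was narrow. The fall was 3.52-fold, a log2 fold change of -1.82 ± 0.10 (SE, adjusted p = 1.7e-13), and was seen in 2 of 2 shared clones. The gene Timm21 lies inside Fbxo15 on the opposite strand, with no shared exon, and had 0 counts in every library. Of 522 protein-coding genes that lie within another gene on the opposite strand, 518 (99.2%) had no count in any library, against 945 of 17166 (5.51%) that overlap no other gene. Of 353 that lie within another gene on the same strand, 352 (99.7%) had none. Counts thus behave as if taken over whole gene spans. Reads in the Timm21 interval could have been left out for both genes or counted for Fbxo15, which was not tested. Reads from Timm21, if any entered the count of Fbxo15, cannot be told apart from its own.

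Dppa5a had 73.7, 189 and 130 CPM with 4OHT, against 98.4 and 128 CPM with DMSO. The 4OHT libraries lay on both sides of the DMSO libraries, and the log2 fold change was 0.20 ± 0.40 (SE, adjusted p = 0.71). Dppa3 had 3, 7 and 2 counts with 4OHT, against 10 and 6 counts with DMSO (log2 fold change -0.44 ± 0.79, adjusted p = 0.67). A change in Dppa3 was not detectable at this depth. Scaling by library totals alone took Dppa2 and Dppa4 out of the calls (log2 fold changes 0.31 and 0.32, adjusted p = 0.18 and 0.19), with the median of all genes at -0.32 on that scale.

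**Figure D2:**
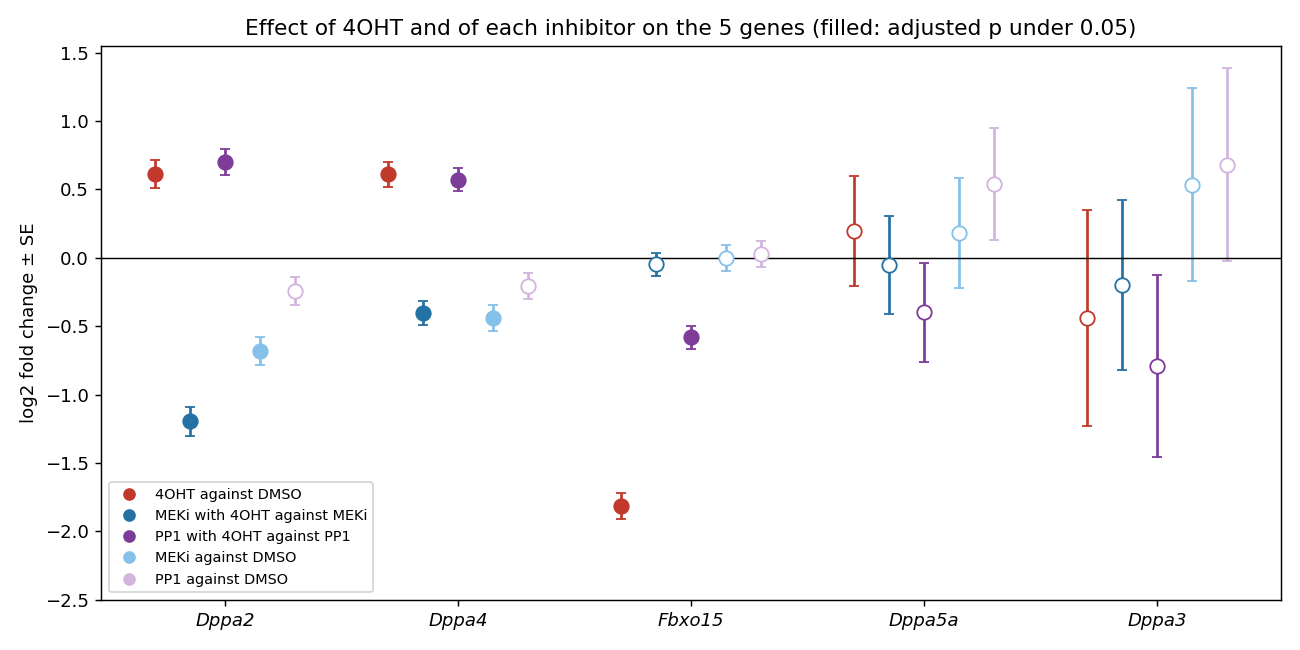
Log2 fold change ± SE (y axis) of each gene (x axis) for 4OHT against its own control, without inhibitor, with MEKi and with PP1, and for each inhibitor alone against DMSO. Filled points had an adjusted p under 0.05 (edgeR). For Dppa2 the 4OHT effect is 0.61 without inhibitor, -1.20 with MEKi and 0.70 with PP1, and for Fbxo15 it is -1.82, -0.05 and -0.58.

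With MEK blocked, the difference between cells with and without 4OHT ran the other way for the neighbouring pair: new RNA of Dppa2 and Dppa4 was lower in MEKi with 4OHT than in MEKi, and Fbxo15 was not called. The labels do not make clear how long MEKi or PP1 was given alone, so time with the inhibitor and 4OHT cannot be told apart in these comparisons or in the interactions that use them. Of the 5 genes, 2 were called lower and 0 higher. Among all genes tested 14.7% were called in this comparison, 7.65% higher and 7.03% lower. In MEKi with 4OHT, Dppa2 had 15.8, 20.4 and 17.2 CPM, against 42.6, 40.7 and 39.2 CPM in MEKi. The 2 groups were well apart, and the fall of 2.29-fold (log2 fold change -1.20 ± 0.10, SE, adjusted p = 2.3e-08) was seen in 3 of 3 clones.

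Dppa4 moved less. It had 35, 34.3 and 35.7 CPM in MEKi with 4OHT, against 49.8, 45.3 and 44 CPM in MEKi. Its log2 fold change was -0.41 ± 0.09 (SE, adjusted p = 0.0024), lower in 3 of 3 clones and with no overlap between the groups. Scaling by library totals alone ended this call (log2 fold change -0.24, adjusted p = 0.42) and so did leaving out the 2 libraries of highest background, MEKi clone a and MEKi with 4OHT clone b (-0.34, adjusted p = 0.057).

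Fbxo15 had 391, 368 and 387 CPM in MEKi with 4OHT, against 366, 387 and 430 CPM in MEKi. The groups overlapped, and the log2 fold change was -0.05 ± 0.08 (SE, adjusted p = 0.77). Both groups lay near the DMSO level of 394 ± 8.83 CPM (SD, n = 2). Dppa5a had 117, 114 and 139 CPM in MEKi with 4OHT, against 94.8, 170 and 122 CPM in MEKi, and was not called (adjusted p = 0.95). Dppa3 had 6, 12 and 9 counts in MEKi with 4OHT, against 3, 7 and 15 counts in MEKi (adjusted p = 0.88).

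With PP1 at 2 µM, Dppa2 and Dppa4 were again higher and Fbxo15 lower in PP1 with 4OHT than in PP1, the last by less than without an inhibitor. Here 2 of the 5 genes were called higher and 1 lower, where 31.3% of all genes tested were called, 18.4% higher and 12.8% lower. Dppa2 had 86.2, 94.6 and 88.2 CPM in PP1 with 4OHT, against 52, 59.6 and 53 CPM in PP1. Dppa4 had 79.3, 84.8 and 78.6 CPM in PP1 with 4OHT, against 49.5, 53.6 and 59.4 CPM in PP1. Neither gene's groups overlapped. The log2 fold change was 0.70 ± 0.09 for Dppa2 (SE, adjusted p = 6.1e-06) and 0.57 ± 0.08 for Dppa4 (adjusted p = 1.9e-05), higher in 3 of 3 clones for both.

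Fbxo15 had 262, 264 and 279 CPM in PP1 with 4OHT, against 360, 431 and 411 CPM in PP1. The groups did not overlap, and the fall was 1.5-fold (log2 fold change -0.58 ± 0.09, SE, adjusted p = 1.9e-05), in 3 of 3 clones. Dppa5a had 93.5, 122 and 161 CPM in PP1 with 4OHT, against 236, 117 and 149 CPM in PP1, with overlap and a log2 fold change of -0.40 ± 0.36 (SE, adjusted p = 0.44). Dppa3 had 2, 9 and 7 counts in PP1 with 4OHT, against 2, 6 and 17 counts in PP1 (adjusted p = 0.39).

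The 4OHT effects were compared with each other by interaction terms, each the effect under 1 condition minus that under another. With MEKi minus without inhibitor, 2 of the 5 genes were called lower and 1 higher, where 40.4% of all genes were called, 21.1% higher and 19.3% lower. The difference was -1.81 ± 0.15 on the log2 scale for Dppa2 (SE, adjusted p = 8.2e-10), -1.01 ± 0.13 for Dppa4 (adjusted p = 6.4e-07) and 1.77 ± 0.13 for Fbxo15 (adjusted p = 1.1e-10). The Dppa4 difference was not called with library totals as the only scaling (-0.56, adjusted p = 0.093).

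With PP1 minus without inhibitor, where 26.5% of all genes were called (15.1% higher and 11.4% lower), Fbxo15 was the 1 gene of the 5 called. Its 4OHT effect differed by 1.23 ± 0.13 (SE, adjusted p = 1.5e-07), so that the fall was smaller under PP1. For Dppa2 the same difference was 0.09 ± 0.14 (SE, adjusted p = 0.69) and for Dppa4 -0.04 ± 0.12 (SE, adjusted p = 0.85). A p that misses the threshold does not show that these effects were equal.

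With PP1 minus with MEKi, 2 of the 5 were called higher and 1 lower, where 12.3% of all genes were called, 7.41% higher and 4.86% lower. The difference in the 4OHT effect was 1.90 ± 0.14 for Dppa2 (SE, adjusted p = 7.1e-10), 0.98 ± 0.12 for Dppa4 (adjusted p = 3.1e-06) and -0.54 ± 0.12 for Fbxo15 (adjusted p = 0.0033). The last was not called with library totals as the only scaling (-0.59, adjusted p = 0.21). Neither Dppa5a nor Dppa3 was called in any of the 3 interactions, with Dppa5a between -0.59 ± 0.54 and -0.25 ± 0.54 (SE) on the log2 scale.

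The inhibitors alone were set against DMSO. MEKi lowered Dppa2 and Dppa4 in the absence of 4OHT, so that 2 of the 5 genes were called where 0.53% of all genes were, 0.0805% higher and 0.449% lower. Dppa2 averaged 40.8 ± 1.73 CPM in MEKi (SD, n = 3) and 65.3 ± 5.25 CPM in DMSO (SD, n = 2). Dppa4 averaged 46.4 ± 3.05 CPM in MEKi and 62.9 ± 0.717 CPM in DMSO. No MEKi library reached a DMSO library for either gene. The log2 fold change was -0.68 ± 0.10 for Dppa2 (SE, adjusted p = 0.00088) and -0.44 ± 0.09 for Dppa4 (adjusted p = 0.021). Without DMSO clone b neither was called (adjusted p = 0.068 for Dppa2), and Dppa4 was also lost without DMSO clone c, MEKi clone b or MEKi clone c. Neither was called with library totals as the only scaling, and Dppa4 was lost when only the groups compared were fitted. Of 13 alternatives, 11 kept the Dppa2 call and 7 kept the Dppa4 call.

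Fbxo15 averaged 394 ± 32.9 CPM in MEKi (SD, n = 3), against 394 ± 8.83 CPM in DMSO (SD, n = 2), a log2 fold change of 0.00 ± 0.09 on the scale of the fit (adjusted p = 1). Dppa5a averaged 129 ± 38.2 CPM in MEKi (SD, n = 3), against 113 ± 20.8 CPM in DMSO.

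With PP1 alone 0 of the 5 genes were called by edgeR, where 0.241% of all genes were, 0.0805% higher and 0.161% lower. At an unadjusted p under 0.05 there were 2, and DESeq2 also called 0. Dppa2 averaged 54.9 ± 4.1 CPM in PP1 (SD, n = 3) and 65.3 ± 5.25 CPM in DMSO (SD, n = 2), with a log2 fold change of -0.24 ± 0.10 (SE, adjusted p = 0.38). Dppa4 averaged 54.2 ± 4.97 CPM in PP1 and 62.9 ± 0.717 CPM in DMSO (log2 fold change -0.21 ± 0.09, adjusted p = 0.42). The PP1 libraries of both genes lay below the DMSO libraries, but these differences did not pass. The share of all genes that separate in this way was not counted. Fbxo15 averaged 401 ± 36.4 CPM in PP1 and 394 ± 8.83 CPM in DMSO (adjusted p = 0.95).

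PP1 is directed at ERK2 Q103A and MEKi at the MEK kinases above it, and the doses differ (2 µM PP1 and 1 µM MEKi). Under PP1 the 9 ERK targets still rose with 4OHT, at a median of 1.66 on the log2 scale, beside 1.7 without inhibitor. Their median under MEKi was -2.09. In PP1 with 4OHT, 7 of the 9 were lower than in 4OHT, so output of the pathway was reduced but not stopped. Without 4OHT, Dppa2 averaged 54.9 ± 4.1 CPM in PP1 and 40.8 ± 1.73 CPM in MEKi (SD, n = 3 each). In this comparison 0 of the 5 genes were called by edgeR, 2 had an unadjusted p under 0.05 and DESeq2 called 1, where 0.0738% of all genes were called. For Dppa2 the log2 fold change was 0.43 ± 0.10 (SE, adjusted p = 0.18). It was called with clone as a replicate block (0.42, adjusted p = 0.048), without the filter on low counts (adjusted p = 0.043) and by DESeq2 (adjusted p = 0.027).

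With 4OHT in both groups, PP1 and MEKi gave different levels of 3 of the 5 genes, 2 higher and 1 lower in PP1 with 4OHT, where 28.2% of all genes were called, 15.2% higher and 13% lower. Dppa2 averaged 89.7 ± 4.34 CPM in PP1 with 4OHT and 17.8 ± 2.4 CPM in MEKi with 4OHT (SD, n = 3 each), 5.04-fold apart (adjusted p = 9.6e-15). Dppa4 averaged 80.9 ± 3.45 CPM in PP1 with 4OHT and 35 ± 0.674 CPM in MEKi with 4OHT (adjusted p = 6.6e-11). Fbxo15 averaged 268 ± 9.6 CPM in PP1 with 4OHT and 382 ± 12 CPM in MEKi with 4OHT, a log2 fold change of -0.51 ± 0.08 (SE, adjusted p = 5.7e-05).

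Within 4OHT-treated cells, adding MEKi gave the largest differences measured for Dppa2 and Dppa4 among the comparisons of 2 groups. In MEKi with 4OHT against 4OHT, 2 of the 5 genes were called lower and 1 higher, where 56.8% of all genes were called, 28.4% higher and 28.4% lower. Dppa2 averaged 17.8 ± 2.4 CPM in MEKi with 4OHT and 100 ± 7.71 CPM in 4OHT (SD, n = 3 each), a 5.62-fold difference (adjusted p = 6.2e-16). Dppa4 averaged 35 ± 0.674 CPM in MEKi with 4OHT and 95.8 ± 5.57 CPM in 4OHT, a 2.74-fold difference (adjusted p = 4.5e-13). Fbxo15 averaged 382 ± 12 CPM in MEKi with 4OHT and 112 ± 15.6 CPM in 4OHT, 3.41-fold higher (adjusted p = 3.2e-14).

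Adding PP1 to 4OHT moved Fbxo15 most. It averaged 268 ± 9.6 CPM in PP1 with 4OHT and 112 ± 15.6 CPM in 4OHT (SD, n = 3 each), 2.39-fold higher (adjusted p = 5.6e-11). Dppa4 averaged 80.9 ± 3.45 CPM in PP1 with 4OHT and 95.8 ± 5.57 CPM in 4OHT, a log2 fold change of -0.25 ± 0.08 (SE, adjusted p = 0.016), and Dppa2 was not called (-0.16 ± 0.09, adjusted p = 0.16). Thus 1 of the 5 genes was called higher and 1 lower, where 41.9% of all genes were called, 21.4% higher and 20.5% lower. The Dppa4 call was lost with library totals alone (-0.03, adjusted p = 0.93), with library totals without the high-count loci (-0.07, adjusted p = 0.54) and without PP1 with 4OHT clone c (adjusted p = 0.058), while Dppa2 was called without 4OHT clone a (-0.24, adjusted p = 0.045).

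Dppa2 and Dppa4 moved the same way with 4OHT under all 3 conditions. Under MEKi the log2 fold changes measured were -1.20 for Dppa2 and -0.41 for Dppa4. The ratio of Dppa2 to Dppa4 counts within a library needs no scaling between libraries, and was chosen after its values were seen. It was 0.45, 0.596 and 0.484 in MEKi with 4OHT (clones a, b and c), against 0.856, 0.899 and 0.89 in MEKi. In 4OHT it was 0.919, 1.18 and 1.06, against 1.09 and 0.988 in DMSO. In PP1 with 4OHT it was 1.09, 1.11 and 1.12, against 1.05, 1.11 and 0.893 in PP1. The 3 MEKi with 4OHT libraries lay below all 14 others. An exact two-sided permutation test of MEKi with 4OHT against MEKi gave p = 0.1, the smallest that 3 against 3 libraries allow, p = 0.9 for 4OHT against DMSO (smallest possible 0.2) and p = 0.2 for PP1 with 4OHT against PP1.

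**Figure D3:**
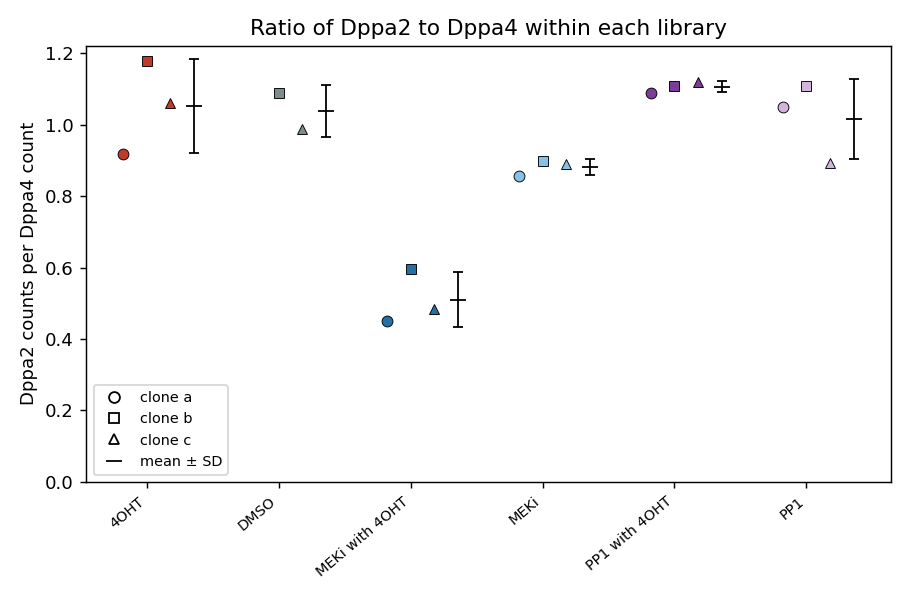
Ratio of Dppa2 counts to Dppa4 counts within each library (y axis, from 0) by group. Points are libraries, shaped by clone, and bars are mean ± SD. The MEKi with 4OHT libraries lie between 0.45 and 0.596, the MEKi libraries between 0.856 and 0.899, and the other groups between 0.893 and 1.18.

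The genes were also described by the level of new RNA across the 17 libraries. Pearson's r between log2 CPM of Dppa2 and Dppa4 was 0.95, that of Dppa4 and Fbxo15 was -0.77, and that of Dppa2 and Fbxo15 was -0.61. These values describe libraries that share their groups and clones, and carry no p. Where the average log2 CPM was at least 3, the genes most like Dppa2 were Cdc42ep4 (r = 0.99), an effector of CDC42, Tiparp (0.986), a mono-ADP-ribosyltransferase, and Spry2 (0.984), a Sprouty inhibitor of receptor tyrosine kinase signalling. Those most like Dppa4 were Spry4 (0.987), another Sprouty gene, Noct (0.986), the circadian gene nocturnin, and Mkrn1 (0.983), a RING-type ubiquitin ligase. Sizes differed, since Spry4 rose by 4.35 on the log2 scale with 4OHT against DMSO (adjusted p = 8.3e-19), where Dppa4 rose by 0.61.

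The genes most like Fbxo15 were St8sia1 (r = 0.997), the ganglioside GD3 synthase, Tmem143 (0.991), a transmembrane protein gene, and Prep (0.99), prolyl endopeptidase. St8sia1 averaged 25.8 ± 4.46 CPM with 4OHT (SD, n = 3) against 182 ± 3.42 CPM with DMSO (SD, n = 2), 159 ± 12 CPM in MEKi with 4OHT against 188 ± 23.8 CPM in MEKi, and 104 ± 2.02 CPM in PP1 with 4OHT against 188 ± 22.3 CPM in PP1. Prep averaged 70.9 ± 4.18 CPM with 4OHT against 181 ± 6.47 CPM with DMSO. All 3 genes fell with 4OHT without inhibitor and with PP1, although under PP1 Tmem143 and Prep were not called with library totals alone (adjusted p = 0.18 and 0.25). None was called under MEKi (adjusted p = 0.1, 0.76 and 0.22 for St8sia1, Tmem143 and Prep), but St8sia1 was when the MEKi groups were fitted alone (-0.27, adjusted p = 0.044). By Spearman's rho the 3 most alike genes were others for Dppa2, Dppa4 and Fbxo15.

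The genes most like Dppa5a were Mif (r = 0.96), a cytokine gene, Apoe (0.951), encoding an apolipoprotein, and Gapdh (0.951), a glycolytic enzyme gene. Its level ran between 73.7 and 236 CPM, a 3.2-fold range, and its groups overlapped in all 9 comparisons of 2 groups. The 5 libraries with the highest Dppa5a level were also the 5 in which the 14 high-count loci took the largest share. That share was 42% in the highest Dppa5a library (PP1 clone a) and 9.38% in the lowest (4OHT clone a), and its part in the level was not tested. For Dppa3, Dppa2, Dppa4 and Fbxo15 the same overlap was 3, 2, 1 and 1 of 5 libraries. For Dppa3, whose counts of 2 to 17 make such values weak, no gene passed r = 0.707.

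**Figure D4:**
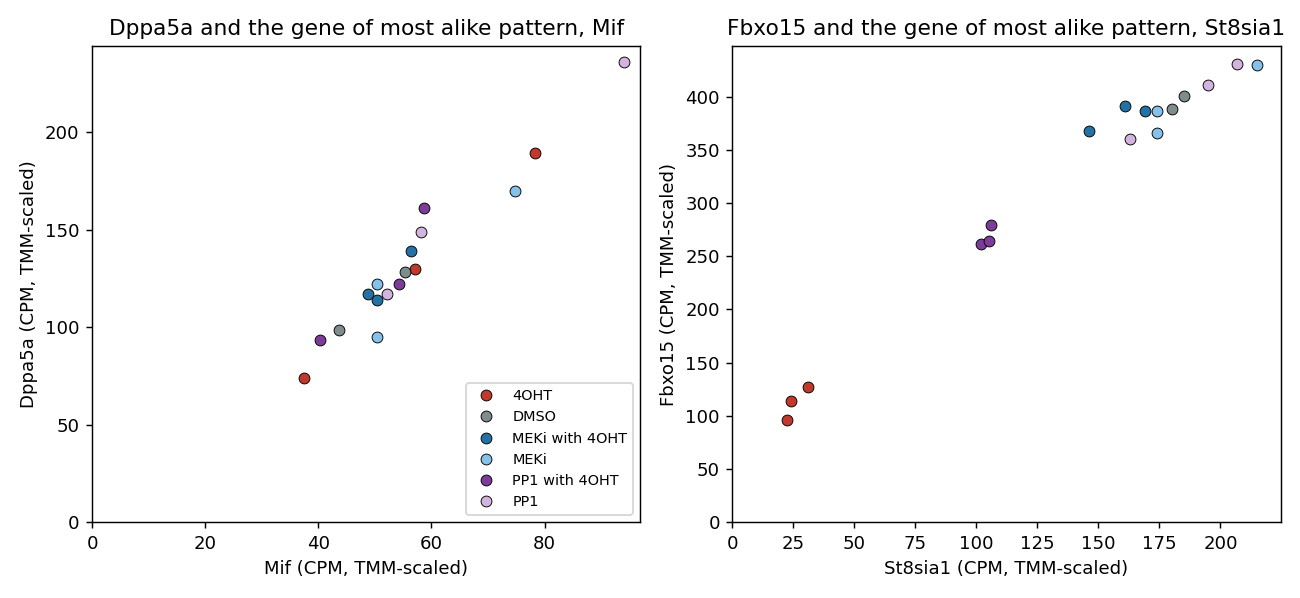
Level (CPM after TMM scaling, axes from 0) of Dppa5a against Mif and of Fbxo15 against St8sia1, the genes of most alike pattern, with 1 point per library coloured by group. Fbxo15 and St8sia1 are lowest in the 4OHT libraries and intermediate in PP1 with 4OHT, while Dppa5a and Mif vary within groups (r = 0.96 and r = 0.997 are over all 17 libraries and carry no p).

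Genes next to the members on the chromosome were described in the same way. Up to 3 protein-coding genes on each side gave 24 genes that are not members, of which 15 were tested. With 4OHT against DMSO, 2 were called higher and 7 lower, with 4OHT under MEKi 1 higher and 3 lower, and with 4OHT under PP1 2 higher and 5 lower. Among all genes tested, 25.7%, 7.65% and 18.4% were higher and 26.3%, 7.03% and 12.8% lower in these comparisons. In either direction, 52%, 14.7% and 31.3% of all genes were called. The neighbours were thus called about as often as genes at large with 4OHT against DMSO, and more often under MEKi and PP1. Their share called lower was above that of all genes in all 3 comparisons. With 15 genes tested, these differences in share were not tested. Morc1, which is known for silencing transposons in the male germ line and lies 111514 bp beyond Dppa2, changed by -0.59 ± 0.14 with 4OHT against DMSO (SE, adjusted p = 0.0017). Nectin3, a cell adhesion gene on the other side of Dppa4 and 1785208 bp from it, changed by 0.11 ± 0.12 (adjusted p = 0.49).

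Dppa3 sits between Gdf3, a TGF-beta family ligand, and Nanog, a core pluripotency factor. With 4OHT against DMSO, Gdf3 changed by -0.80 ± 0.10 (SE, adjusted p = 8.5e-07) and Nanog by -1.15 ± 0.13 (adjusted p = 1.1e-06), while the glucose transporter gene Slc2a3 beyond Nanog changed by 0.90 ± 0.10 (adjusted p = 1.3e-07). Next to Dppa5a, Ooep, a KH-domain gene of the egg's subcortical complex, changed by -0.82 ± 0.15 (adjusted p = 6.7e-05) and the helicase gene Ddx43 by 0.58 ± 0.12 (adjusted p = 0.00027). Next to Fbxo15, Cyb5a, the cytochrome b5 gene, changed by -0.04 ± 0.09 (adjusted p = 0.77). Ddx43 was not called with library totals as the only scaling (0.29, adjusted p = 0.26), and Morc1 was not called without DMSO clone b (adjusted p = 0.078).

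**Figure D5:**
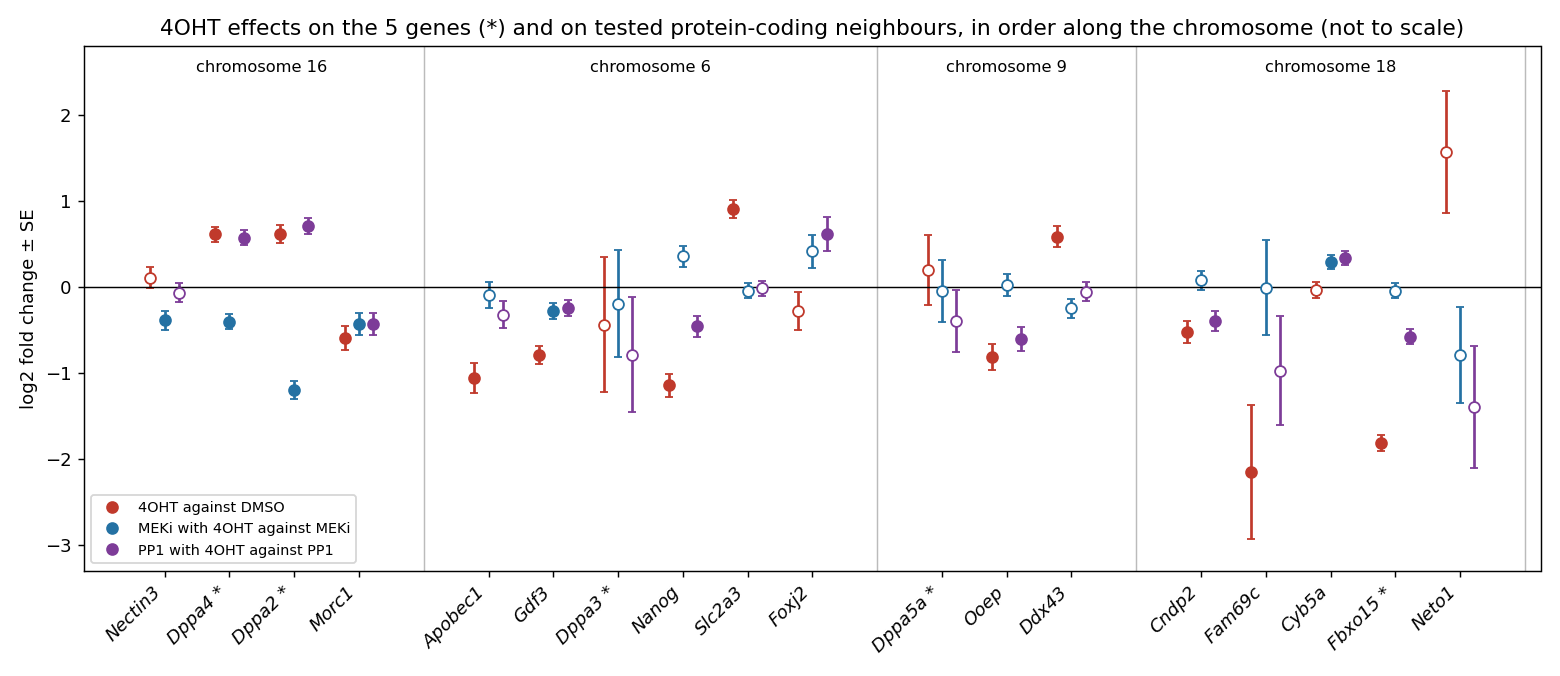
Log2 fold change ± SE (y axis) of the members (marked with *) and of tested protein-coding genes on either side, in chromosome order and not to scale. Effects are for 4OHT against its own control without inhibitor, with MEKi and with PP1. Filled points had an adjusted p under 0.05 (edgeR). Dppa4 and Dppa2 lie at 0.61 with 4OHT against DMSO, with Nectin3 (1785208 bp from Dppa4) at 0.11 and Morc1 (111514 bp from Dppa2) at -0.59. Neto1 is 1413479 bp from Fbxo15.

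Genes linked to the members by function, family or programme, not all of them partners of the proteins, were counted in lists. The lists were written from general knowledge, with earlier results of these data known. Counts are given in the order 4OHT, MEKi with 4OHT and PP1 with 4OHT, each against its own control. The shares of all genes tested that were called in this order, 25.7%, 7.65% and 18.4% higher and 26.3%, 7.03% and 12.8% lower, are the background for each count. Of 7 genes of the SCF core, into which FBXO15 would plug, 5, 1 and 3 were called higher and 0, 1 and 0 lower, with medians of 0.35, -0.10 and 0.20 on the log2 scale. The medians of all genes tested were -0.03, 0.00 and 0.00. Skp1a, the adaptor that binds the F-box, rose by 0.50 ± 0.09 with 4OHT against DMSO (SE, adjusted p = 2.8e-05), and Cul1, the scaffold, by 0.43 ± 0.08 (adjusted p = 4.7e-05). With library totals as the only scaling, 0 of the 7 were higher and 1 lower with 4OHT against DMSO, at a median of 0.05 beside -0.32 for all genes. Among 59 other F-box genes tested, 15, 4 and 11 were higher and 17, 4 and 5 lower, close to the background with 4OHT against DMSO. With library totals alone 4, 2 and 5 were higher and 21, 1 and 1 lower. Fbxl4, known for its role in mitochondria, fell by 1.85 ± 0.14 with 4OHT against DMSO (SE, adjusted p = 8.1e-11), where Fbxo15 fell by 1.82, and Fbxo11 rose by 0.95 ± 0.09 (adjusted p = 5.1e-09).

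Of 9 genes for writing, reading or removing DNA methylation, to which Dppa2, Dppa3 and Dppa4 are linked as background, 3, 0 and 1 were higher and 2, 4 and 3 lower, against a background of 25.7%, 7.65% and 18.4% higher and 26.3%, 7.03% and 12.8% lower. With library totals alone 1, 0 and 1 were higher and 2, 2 and 0 lower. The de novo methyltransferase gene Dnmt3a rose by 2.12 ± 0.12 with 4OHT against DMSO (SE, adjusted p = 4.9e-13) and Tet1, a 5-methylcytosine oxidase gene, fell by 1.57 ± 0.08 (adjusted p = 1.8e-13). Uhrf1, the binding partner of the DPPA3 protein, changed by 0.34 ± 0.13 (adjusted p = 0.03), and this call was lost with clone as a replicate block (adjusted p = 0.052), with library totals alone (0.03, adjusted p = 0.89) and without any 1 of DMSO clones b and c and 4OHT clones b and c. Under MEKi, Tet1 fell by 0.87 ± 0.07 (adjusted p = 1.7e-08) and Dnmt3l, the cofactor of the de novo enzymes, by 0.81 ± 0.14 (adjusted p = 0.00072).

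Genes listed for the 2-cell-like programme, which DPPA2 and DPPA4 are known to act upstream of, had few counts apart from Eif1a. Of 20 such genes in the table, 3 passed the filter, and Duxf3, the Dux gene, had 16 counts over all 17 libraries. Zscan4d had 111 counts over all libraries and was not called for 4OHT under any of the 3 conditions. Eif1a, a translation initiation factor gene, had 47458 counts in all, far more than any other gene of the list. It was the 1 called of the 3 tested, and its change is not read as one of the programme. Eif1a rose by 0.54 ± 0.07 with 4OHT against DMSO (SE, adjusted p = 3.4e-07) and by 0.30 ± 0.06 under PP1 (adjusted p = 0.00057). Neither was called with library totals alone (adjusted p = 0.27 and 0.055). Members of this list are near-identical copies of each other in part, so their single counts are uncertain.

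Of 15 germline genes tested, 3, 0 and 0 were higher and 2, 2 and 2 lower, against a background of 25.7%, 7.65% and 18.4% higher and 26.3%, 7.03% and 12.8% lower. With library totals alone 1, 0 and 0 were higher and 4, 0 and 0 lower, so that the counts with 4OHT against DMSO turned. The list's median relative to that of all genes did not, at 0.04 on both scales. Tex19.1, a germ cell and placenta gene, rose by 2.07 ± 0.23 with 4OHT against DMSO (SE, adjusted p = 3e-07), while Stk31, a testis kinase gene, fell by 1.02 ± 0.15 (adjusted p = 2.5e-06). Of 20 pluripotency regulators, 2, 1 and 3 were higher and 11, 7 and 8 lower, with medians of -0.58, -0.23 and -0.13 beside -0.03, 0.00 and 0.00 for all genes, of which the shares called were those just given. With library totals alone 1, 2 and 4 were higher and 13, 4 and 2 lower, so that the counts turned under PP1. The list's median relative to that of all genes under PP1 was -0.12 on that scale and -0.13 with TMM. Fbxo15 thus fell with 4OHT alongside 11 of these 20 genes, such as Klf4 (-1.01 ± 0.08, SE, adjusted p = 3.3e-10), whereas Dppa2 and Dppa4 rose. A list of 8 genes held KH-domain relatives of Dppa5a and other genes of the egg's subcortical complex, and 3 were tested. Ooep was the 1 called, lower with 4OHT against DMSO and with 4OHT under PP1, while 0 were called under MEKi. The call under PP1 was lost with library totals alone. The last Dppa symbol in the table, Dppa1, had 0 to 7 counts per library and was not tested.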

How the data were processed

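The deposited table holds raw whole-number counts per gene symbol in 1 column per library. The submitters' processing notes name STAR, the mm10 build and featureCounts. Versions, annotation, feature type, strand and the handling of reads that map to several places were not given in the sources used here. All 17 columns were used. In R 4.3.3, edgeR 4.0.16 was run on the deposited counts of all 17 libraries with TMM scaling, filterByExpr by group (14907 genes kept), 1 term per group and a robust quasi-likelihood fit with 11 residual degrees of freedom. The 12 comparisons (9 of 2 groups, 3 interactions) were adjusted over all genes tested, each separately, and a gene was called at an adjusted p under 0.05. The standard error is the log2 fold change over the square root of the F value, an approximation that was not fitted directly. The fit was tested on simulated data.

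The members, lists and tests were chosen with earlier results of these data known. Named genes are the 5 members, the 3 genes of most alike pattern for each (average log2 CPM of at least 3, prior count 2, no predicted symbols), up to 3 protein-coding neighbours on each side, other Dppa symbols, and up to 4 called genes per list. Mapk3, Timm21, Duxf3 and Zscan4d were named outside this rule. Dppa5 sequences are from GENCODE mouse release 21 transcripts. High-count loci are those with a mean of at least 1000 counts whose share of a library followed that of Cdk8 (r of at least 0.95). Background is the lower end of counts per megabase over 1466 genes spanning at least 150000 bp. The labels give each library's clone, so libraries pair by clone; deviations from group means correlated by 0.086 on average between libraries of 1 clone and by -0.043 between clones. Alternatives were DESeq2's size factors, library totals alone or without the high-count loci, no filter, DESeq2 1.42.0, clone as a replicate block, only the groups compared, each library left out, and 2 libraries left out. Library totals set the depth, from 5239690 to 11093390 counts.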

Additional observations from a re-analysis of the deposited data

Results flagged for a closer look

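The effect of 4OHT differed between conditions for 3 of the 5 genes, by a test of the difference itself (edgeR's interaction terms, log2 scale). With MEKi minus without inhibitor, the difference was -1.81 for Dppa2, -1.01 for Dppa4 and 1.77 for Fbxo15. With PP1 minus without inhibitor it was 1.23 for Fbxo15. With PP1 minus with MEKi it was 1.90 for Dppa2, 0.98 for Dppa4 and -0.54 for Fbxo15. No group held more than 3 libraries, so single libraries were not tested as outliers.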

How the results depend on the processing

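No called value of the 5 genes changed direction under any alternative run. Scaling by library totals alone lost the most calls, 8 of 60 values: the number of the 5 genes called became 1 in 4OHT against DMSO (3 with TMM), 1 in MEKi with 4OHT against MEKi (2), 0 in MEKi against DMSO (2) and 1 in PP1 with 4OHT against 4OHT (2, Dppa4 being lost). The other 2 calls lost were interactions, Dppa4 with MEKi minus without inhibitor and Fbxo15 with PP1 minus with MEKi. The medians of all genes in the comparisons of 2 groups named were then -0.32, 0.17, -0.13 and 0.23, and relative to -0.32 the 0.31 of Dppa2 with 4OHT is a rise. Library totals without the high-count loci gave 1 in PP1 with 4OHT against 4OHT. Leaving out the 2 libraries of highest background, chosen after seeing the data like the alternative before, gave 1 in MEKi with 4OHT against MEKi. In MEKi against DMSO, only the groups compared gave 1, and leaving out each library in turn gave 0 to 2. In PP1 with 4OHT against 4OHT, leaving out each library gave 1 to 3. In PP1 against MEKi (0 called), no filter, DESeq2 and clone as a replicate block each gave 1, in each case Dppa2. The replicate block changed no other call of the 5 genes. With only the groups compared, Dppa3 was dropped by the filter in 10 of 12 comparisons and has no value there. The causes were not tested. Dppa3, at 2 to 17 counts per library, is limited by depth.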
